A study of Mus musculus with 2 samples.

Results

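The NRF2 and antioxidant defence genes examined here are 35 mouse genes that make, recycle or use the reducing power of a cell against peroxides and superoxide, together with the factors that control them. They were taken by symbol from a given list, with no threshold on their values. The list was chosen with earlier results of these data known. All 35 were found among the 21911 genes of the deposited expression table. Of these, 34 had a mean level of at least 1 FPKM over the libraries and were compared with the 10267 genes past the same limit; Sod3 lay below it. FPKM is the number of sequenced fragments per kilobase of transcript, scaled by the depth of the library, so that levels can be compared between genes. The genes were measured in 4T1 cells, a mouse mammary carcinoma line that spreads to the lung. One library came from 5000000 cells kept for 48 h with PBS, the control, and 1 from cells kept for 48 h with potassium oxalate; the labels name no genetic change in either. The sample label and the paper that reported the data give the oxalate dose as 20 µM. The treatment protocol gives 20 mM, so the sources differ and the dose is uncertain to that extent. The question was which genes differ in 4T1 cells under oxalate, an end product of metabolism that is known to raise reactive oxygen species in kidney cells.

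NRF2, encoded by Nfe2l2, is a transcription factor that KEAP1 holds in the cytoplasm and delivers for degradation. Oxidants and electrophiles modify KEAP1, NRF2 then enters the nucleus, pairs with a small MAF protein and binds antioxidant response elements beside genes for glutathione synthesis, the thioredoxin system and NADPH supply. The thioredoxin and glutathione branches both draw their electrons from NADPH. Most peroxiredoxins, which remove peroxides, are in turn reduced by thioredoxin.

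Since each condition was sequenced once, no test between conditions exists and every difference given here lacks a replicate check. Steps in low FPKM values gave an estimated depth of 56800000 reads (PBS) against 36400000 reads (oxalate). From the estimated reads an exact Clopper-Pearson 95% interval of each log2 ratio of oxalate to PBS was computed, which covers counting error only and compares the libraries, not the conditions. Fold changes are given on the scale log2((oxalate + 1)/(PBS + 1)), a scale that shrinks the change of low genes. Markers of mammary carcinoma epithelium were high, with 7 of 7 past the level limit and summed levels of 2086 FPKM under PBS and 2131 FPKM under oxalate. Leukocyte markers summed to 12.7 and 12.3 FPKM, with 5 of 7 listed at 0 in both libraries, among them Ptprc. The rest of that sum came from Cd68, at 7.79 and 7.11 FPKM, and Csf1r, at 4.93 and 5.18 FPKM, both past the level limit. Fibroblast markers summed to 2.21 and 2.29 FPKM and endothelial markers to 0.08 and 0.09 FPKM. Of the fibroblast markers, Pdgfra was past the level limit at 1.88 and 1.93 FPKM.

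As a group, the antioxidant genes lay at nearly the same level in both libraries. The 35 genes summed to 2917 FPKM under PBS and 2900 FPKM under oxalate, which was 0.514% and 0.519% of all FPKM. Of the 34 genes compared, 17 were higher and 17 lower with oxalate, against 50.6% higher and 49% lower among all genes. Their median log2 fold change was -0.00052, beside 0.0031 over all genes. The genes Txn2, Idh1 and Txnrd2 (3 in all) were at least 1.2-fold higher with oxalate, 8.82% of the members against 4.75% of all genes. None of the 34 was at least 1.2-fold lower, against 5.19% of all genes, and none differed 2-fold, against 0.653% of all genes. The counting interval lay above no difference for 12 members, against 24.9% of all genes, and below it for 6 members, against 23.8%. For the other 16 members the interval included no difference, so that none could be detected at this depth. In these bulk libraries fewer cells of a type and less RNA per cell cannot be told apart. Of the 35 genes, 9 overlap another listed gene, and the use of strand in counting is not given in the sources used here; Txn1, Prdx2 and Prdx6 also have annotated near-copies. The values of these genes are uncertain to that extent.

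**Figure D1:**
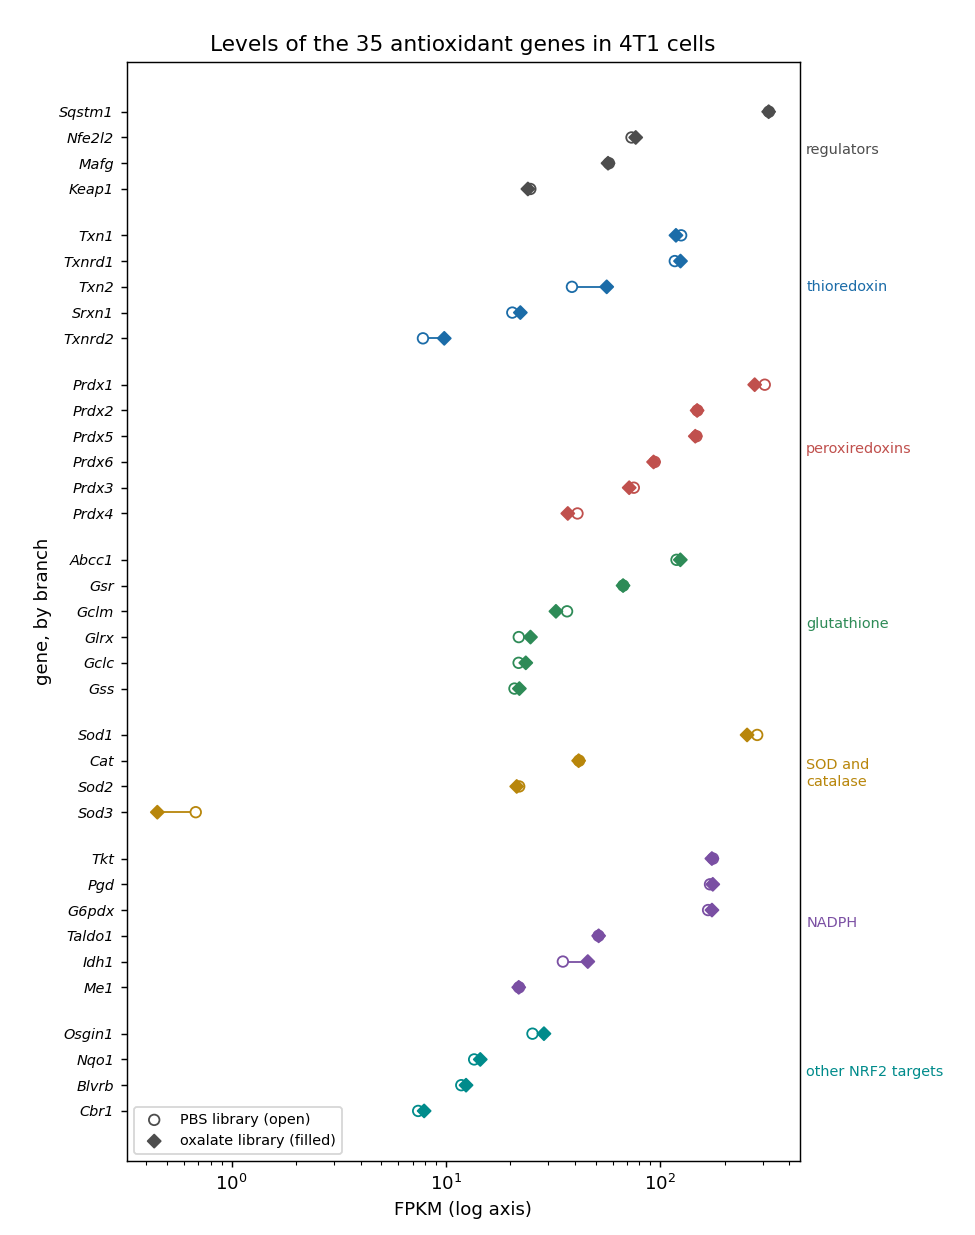
Level of each of the 35 genes in FPKM (log axis) in the PBS library (open circle) and the oxalate library (filled diamond), by branch, with 1 library per condition. Most pairs of symbols overlap; Txn2, Txnrd2, Idh1 and the low Sod3 show the widest gaps.

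The promoters of these genes were read for the letters of the antioxidant response element, TGACNNNGC, on both strands. Promoters are 300-base windows from RefSeq on GRCm38.p6, 250 bases before to 50 after an annotated start, and 30 of the 35 members had at least 1. The letters were found for 10 of the 30 genes (33.3%), beside 14.0% of the 27025 genes in the table and 12.4% of the 32851 single windows. With A or G required before TGAC, a form chosen after the data were seen, 3 of the 30 genes (10%) and 7.20% of all genes held them. The letters of an AP-1 site, TGACTCA, searched for on both strands after the data were seen, overlap this element and stood within it in Prdx1 and Me1; they were found in the windows of 5 of the 30 members (16.7%), beside 5.95% of all genes and 5.20% of all windows. A match is a description of the letters and not evidence of binding. A missing match covers only the 300 bases of a window and does not show that a gene lacks the element elsewhere. The matches of 1 gene per branch are shown 5′ to 3′ on the strand of the gene, with the 9 matched bases in capitals. In Txnrd1, Prdx1, Gclm and Sod1 the match reads on the opposite strand. Of those shown, Txnrd1, Prdx1 and Me1 also have A or G before TGAC, whereas Nfe2l2, Gclm and Sod1 match the looser letters only.
Nfe2l2 (chr2:75704875-75704913, minus strand, starting 240 bases before the start): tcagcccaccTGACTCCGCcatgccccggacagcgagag
Txnrd1 (chr10:82859094-82859142, plus strand, 92 bases before the start): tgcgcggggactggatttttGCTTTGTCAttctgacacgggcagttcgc
Prdx1 (chr4:116685446-116685494, plus strand, 133 bases before the start): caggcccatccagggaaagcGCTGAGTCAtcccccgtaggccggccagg
Gclm (chr3:122245403-122245451, plus strand, 134 bases before the start): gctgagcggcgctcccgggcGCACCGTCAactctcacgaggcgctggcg
Sod1 (chr16:90220686-90220734, plus strand, 56 bases before the start): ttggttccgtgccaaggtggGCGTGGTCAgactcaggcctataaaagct
Me1 (chr9:86695892-86695940, minus strand, 6 bases before the start): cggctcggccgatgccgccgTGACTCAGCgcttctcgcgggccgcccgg

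The other 4 genes with a match were Mafg, Srxn1, G6pdx and Pgd. The 10 genes with a match had a median log2 fold change of 0.019, from -0.17 to 0.12, and 5 of them were higher with oxalate. The 20 genes with a window but no match had a median of -0.00094, from -0.15 to 0.53, and 10 were higher. All 3 genes at least 1.2-fold higher, Txn2, Idh1 and Txnrd2, were among the 20 without these letters in their windows. Most genes lacked the letters, which were found for 33.3% of the members with a window and 14.0% of all genes. Whether the letters bear on the fold changes was not tested.

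Of the 4 regulators on the list, Nfe2l2 itself was slightly higher as deposited, and Keap1, Mafg and Sqstm1 were level. Nfe2l2 (ENSMUSG00000015839, chromosome 2, 75675513 to 75704641 in GENCODE M21 on GRCm38) was at 73.43 FPKM under PBS and 76.83 FPKM under oxalate, a ratio of 1.05 with a counting interval of the log2 ratio from 0.021 to 0.11. Keap1, whose product is the NRF2 inhibitor and oxidant sensor, was at 24.76 and 24.12 FPKM, with an interval from -0.11 to 0.034. Mafg, which encodes a small MAF partner of NRF2, was at 57.61 and 57.06 FPKM. Sqstm1 encodes p62, an autophagy receptor that sequesters KEAP1, and was the highest of the 35 genes in both libraries at 321.42 and 320.57 FPKM. The intervals of Keap1, Mafg and Sqstm1 included no difference. After centring on genes of like GC content, Sqstm1 was at -0.038, below its counting interval, which began at -0.029. Mafg overlaps Sirt7 on the same strand, so its value is uncertain.

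The thioredoxin branch held 2 of the 3 genes at least 1.2-fold higher with oxalate, Txn2 and Txnrd2. Txn2 encodes the mitochondrial thioredoxin, and Txnrd2 the mitochondrial reductase that recharges it with NADPH. Txn2 (ENSMUSG00000005354, chromosome 15, 77915047 to 77929006) was at 38.72 FPKM under PBS and 56.26 FPKM under oxalate. This is a ratio of 1.45 and a log2 fold change of 0.53, above that of 98.8% of all genes compared, with an interval of the log2 ratio from 0.46 to 0.62. Txnrd2 (ENSMUSG00000075704, chromosome 16, 18426384 to 18479073) was at 7.81 and 9.82 FPKM, a ratio of 1.26 and a log2 fold change of 0.30, with an interval from 0.16 to 0.50. The value of Txnrd2 is less certain than that of Txn2, which overlaps no other listed gene. After centring on genes of like GC content the log2 fold change of Txnrd2 was 0.26, just under the 1.2-fold limit.

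The cytosolic counterparts lay closer together in the libraries. Txn1, the cytosolic thioredoxin, was at 125.16 FPKM under PBS and 118.38 FPKM under oxalate, an interval from -0.13 to -0.027. Txnrd1, its reductase and a textbook NRF2 target, was at 116.92 and 124.30 FPKM, a ratio of 1.06 with an interval from 0.055 to 0.12. Like Mafg, Txnrd1 overlaps another gene on the same strand, Eid3, so its value is uncertain. Srxn1 encodes sulfiredoxin, which repairs over-oxidized peroxiredoxins, and was at 20.40 and 22.24 FPKM, a ratio of 1.09 with an interval from 0.047 to 0.20. Txn1 was thus lower and the other 4 genes of the branch higher with oxalate, with a branch median of 0.12 on the log2 fold change scale. The sum of the branch was 309.0 FPKM under PBS and 331.0 FPKM under oxalate.

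**Figure D2:**
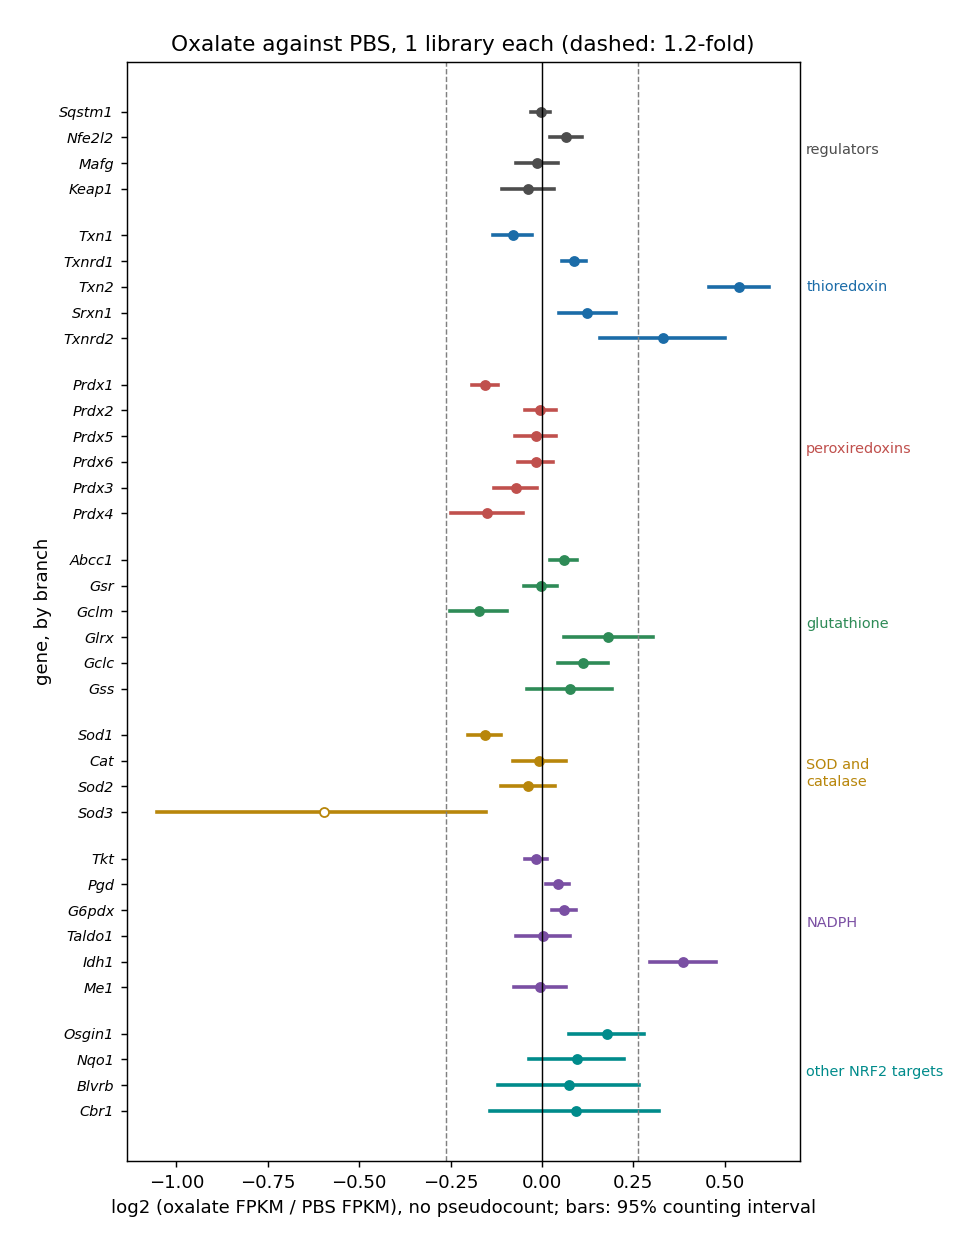
Log2 ratio of oxalate to PBS FPKM, without a pseudocount, for each of the 35 genes by branch (points), with the 95% counting interval from estimated reads (bars) and dashed lines at 1.2-fold. Txn2, Txnrd2 and Idh1 lie to the right of the 1.2-fold line; Sod3, drawn open, is below the level limit.

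The 6 peroxiredoxins, which reduce hydrogen peroxide and organic peroxides, were all slightly lower with oxalate as deposited, none by 1.2-fold, and 2 of them, Prdx2 and Prdx5, turned higher against genes of like transcript length. Prdx1, a cytosolic peroxiredoxin and the second highest gene of the list, was at 307.35 FPKM under PBS and 275.86 FPKM under oxalate, a ratio of 0.898 with an interval from -0.19 to -0.12. Prdx4, the peroxiredoxin of the endoplasmic reticulum, was at 41.09 and 37.03 FPKM, a ratio of 0.901 with an interval from -0.25 to -0.051. Prdx3, a mitochondrial peroxiredoxin that TXN2 reduces, was at 75.27 and 71.62 FPKM with an interval from -0.13 to -0.014. For these 3 genes the oxalate library was lower beyond counting error. Prdx2 was at 149.03 and 148.61 FPKM, Prdx5 at 147.45 and 145.71 FPKM, and Prdx6 at 94.15 and 93.06 FPKM, and their intervals included no difference. The median of the family was -0.044 on the log2 fold change scale, and its sum was 814.3 FPKM under PBS and 771.9 FPKM under oxalate.

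Short transcripts in general were slightly lower in the oxalate library. Among all genes compared, the 10% with the shortest transcripts had a median log2 fold change of -0.056 and the 10% with the longest had 0.039. When each fold change was taken against genes of like length, 4 of the 6 peroxiredoxins were lower and 2 higher, with a median of -0.040. The 10% of genes with the lowest GC content had a median of -0.068 and the 10% with the highest had 0.029. Against genes of like GC content all 6 peroxiredoxins were lower, with a median of -0.051. Prdx1 was then at -0.116, above its counting interval, which ended at -0.121. Whether length or GC content has a part in the family's direction was not tested further.

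Glutathione is made in steps by glutamate-cysteine ligase and glutathione synthetase and kept reduced by glutathione reductase. The catalytic and modifier subunits of the ligase, the rate-limiting enzyme, differed in direction. Gclc, the catalytic subunit, was at 21.83 FPKM under PBS and 23.58 FPKM under oxalate, a ratio of 1.08 with an interval from 0.043 to 0.18. Gclm, the modifier subunit, was at 36.74 and 32.60 FPKM, a ratio of 0.887 with an interval from -0.25 to -0.095. As deposited it had the lowest log2 fold change of the 34 genes at -0.17. After centring on GC content it was at -0.13, and Sod1 was lower at -0.19. Gclc and Gclm are textbook NRF2 targets. The promoter letters shown above were found for Gclm, without A or G before TGAC, and for Gclc no window was at hand. Gss, the synthetase, was at 20.88 and 22.01 FPKM with an interval from -0.040 to 0.19. Gsr, the reductase, was level at 67.20 and 67.06 FPKM. Glrx, a glutaredoxin that uses glutathione to reduce protein thiols, was at 21.87 and 24.80 FPKM, a ratio of 1.13 with an interval from 0.060 to 0.30. Abcc1, an exporter of glutathione conjugates, was at 119.09 and 124.08 FPKM with an interval from 0.022 to 0.097. The branch thus had 4 genes higher and 2 lower, with a median of 0.066.

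Superoxide dismutases turn superoxide into hydrogen peroxide, which catalase removes. Sod1, the cytosolic enzyme and the third highest gene of the list, was at 283.39 FPKM under PBS and 254.21 FPKM under oxalate, a ratio of 0.897 with an interval from -0.20 to -0.11. Its transcript is 641 bases long, the shortest mean length of the list. Its log2 fold change was -0.16 as deposited, -0.10 after centring on length and -0.19 after centring on GC content. Sod2, the mitochondrial enzyme, was level at 21.97 and 21.39 FPKM, and Cat, catalase, at 41.81 and 41.61 FPKM. Sod3, the secreted enzyme, was below the level limit at 0.68 and 0.45 FPKM. These levels correspond to an estimated 144 and 61 reads, with an interval of the log2 ratio from -1.05 to -0.15. No gene of this branch was higher in the oxalate library as deposited, and 1 of the 3 compared, Sod2, turned higher, by 0.0023 on the log2 scale, after centring on GC content.

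Of the 6 genes of the NADPH branch, Idh1 was at least 1.2-fold higher with oxalate. As deposited, G6pdx and Pgd were slightly higher beyond counting error, and for the rest the interval included no difference. Idh1, the cytosolic and peroxisomal isocitrate dehydrogenase (ENSMUSG00000025950, chromosome 1, 65158616 to 65186500), was at 35.12 FPKM under PBS and 45.91 FPKM under oxalate. This is a ratio of 1.31 and a log2 fold change of 0.38, above that of 97.6% of all genes, with an interval from 0.30 to 0.48. G6pdx, the entry enzyme of the pentose phosphate pathway, was at 167.21 and 174.27 FPKM with an interval from 0.027 to 0.093. Pgd, which makes the second NADPH of that pathway, was at 170.68 and 175.83 FPKM with an interval from 0.012 to 0.073. The sugar-shuffling enzymes of its non-oxidative arm were level, Taldo1 at 51.52 and 51.59 FPKM and Tkt at 176.13 and 174.13 FPKM. After centring on GC content, the log2 fold changes were 0.026 for G6pdx, 0.0097 for Pgd and -0.051 for Tkt. Each of these lay below the counting interval of its gene. Me1, the cytosolic malic enzyme, was at 21.93 and 21.86 FPKM. The branch summed to 622.6 FPKM under PBS and 643.6 FPKM under oxalate.

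**Figure D3:**
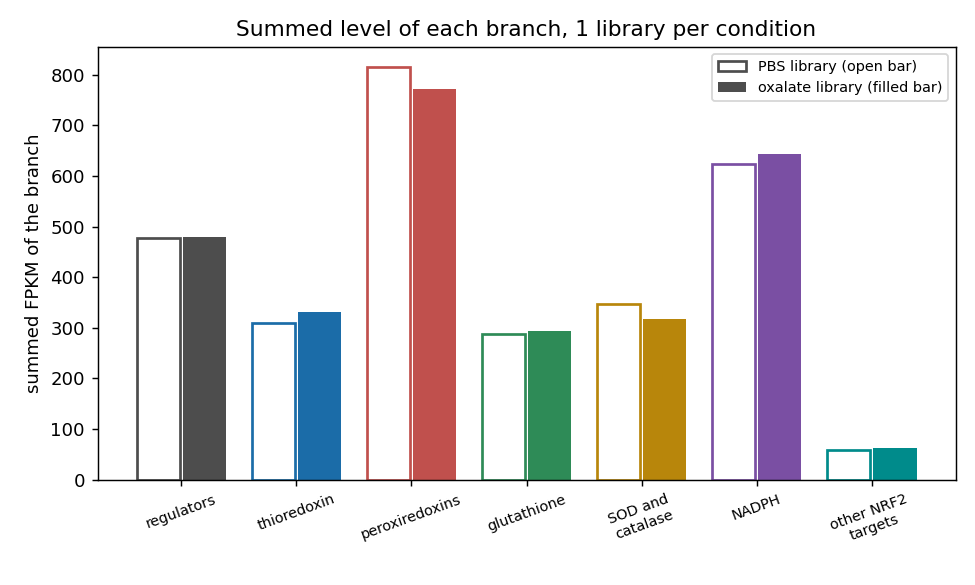
Summed FPKM of the genes of each branch in the PBS library (open bars) and the oxalate library (filled bars), with 1 library per condition and no error bars. Peroxiredoxins form the highest sum in both libraries, 814.3 and 771.9 FPKM, and the largest relative gaps are those of the superoxide dismutase and catalase branch and of the other NRF2 targets.

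The remaining NRF2 targets on the list were all at low to moderate level and all slightly higher with oxalate. Nqo1, a quinone reductase commonly used as a read-out of NRF2, was at 13.54 FPKM under PBS and 14.46 FPKM under oxalate, with an interval from -0.035 to 0.22 that includes no difference. Osgin1, an oxidative stress-induced growth inhibitor, was at 25.34 and 28.66 FPKM, a ratio of 1.13 with an interval from 0.075 to 0.28. Blvrb, biliverdin reductase B, was at 11.79 and 12.41 FPKM, and Cbr1, a carbonyl reductase, at 7.42 and 7.91 FPKM. Of these 4 genes, Osgin1 differed beyond counting error, and the 4 had a median log2 fold change of 0.085.

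By compartment, a grouping made after the values were seen, the mitochondrial Txn2, Txnrd2, Prdx3 and Sod2 had log2 fold changes of 0.53, 0.30, -0.071 and -0.037. Txn2 and Txnrd2 were thus higher, whereas Prdx3 and Sod2 were not. Of 6 cytosolic members grouped in the same way, 1 was higher and 5 lower, with a median of -0.048. Prdx5 was placed in neither group, and the genes outside the list were not grouped.

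The 3 genes at least 1.2-fold higher are also those with the most annotated coding transcripts on the list, 6 for Txn2, 7 for Idh1 and 11 for Txnrd2. Their coding transcripts run from 481 to 2049 bases for Txn2, from 372 to 2302 for Idh1 and from 491 to 2874 for Txnrd2. The 9 members with 1 coding transcript lay between -0.16 and 0.12, with 0 past 1.2-fold, and the 16 with 2 to 4 lay between -0.15 and 0.17, again with 0 past it. The 9 with 5 or more lay between -0.17, for Gclm, and 0.53, with 5 higher, 4 lower and 6 not past 1.2-fold. Among all genes, 6.34% with 1 coding transcript were past 1.2-fold in either direction, 10.3% of those with 2 to 4 and 13.3% of those with 5 or more. How the reads of such genes were shared among transcripts is not given in the sources used here, and its part in the values of Txn2, Idh1 and Txnrd2 was not tested.

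**Figure D4:**
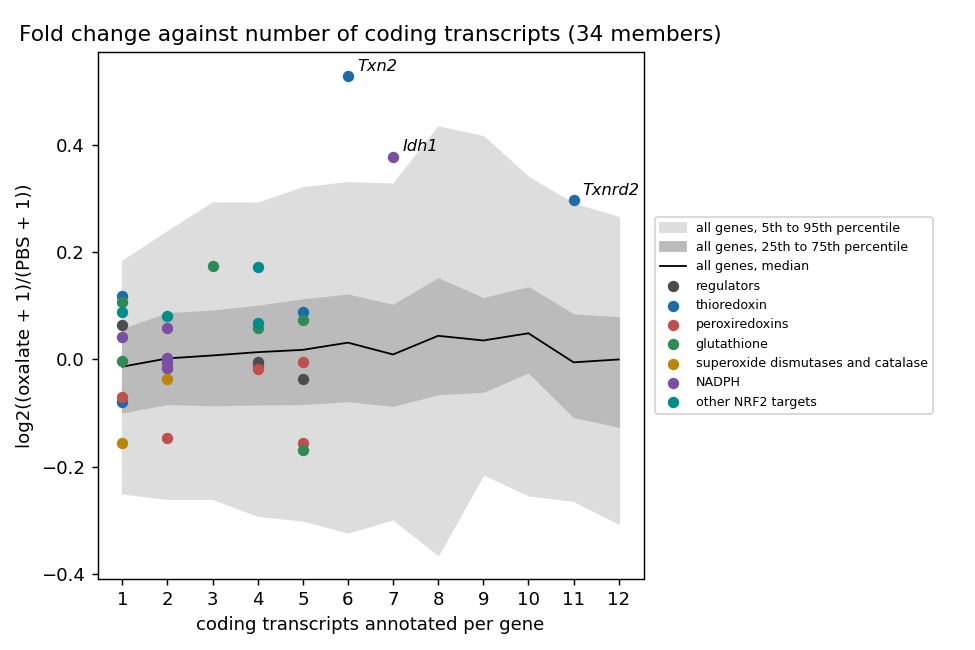
Log2 fold change with a pseudocount of 1 of the 34 genes (points, by branch) against their number of annotated coding transcripts; the bands and line give percentiles of all genes with the same number, for 1 to 12 transcripts. Txn2 and Idh1 lie above the 95th percentile band for genes with 6 and 7 coding transcripts (0.33 for each), and Txnrd2 at its edge for 11 (0.29).

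The order of levels was nearly kept between the libraries. Sqstm1, Prdx1 and Sod1 were the highest in both, from 254.21 to 321.42 FPKM, and Txnrd2, Cbr1 and Sod3 were the lowest. The median member was at 41.81 FPKM under PBS and 51.59 FPKM under oxalate. The middle rank passed from Cat to Taldo1, while Txn2 moved from rank 20 to 17 and Idh1 from 22 to 19.

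Other genes of the pathway came from 5 lists of 94 genes in all, of which 71 were past the level limit, with log2 fold changes from -1.15 for Rac1 to 1.07 for H6pd. Of the 71, 7 were at least 1.2-fold higher and 3 lower, against 4.75% and 5.19% of all genes. Of 26 further known NRF2 targets, 22 were compared, 15 higher and 7 lower around a median of 0.060, and 3 of them past 1.2-fold, all higher. Besides Gstm1 these were Aldh3a1, an aldehyde dehydrogenase, at 20.65 and 26.72 FPKM, and Dnajb4, a co-chaperone, at 7.31 and 9.32 FPKM, both named after their values were seen. Hmox1, heme oxygenase and a sensitive NRF2 target, was level at 42.02 and 42.39 FPKM. Slc7a11, the cystine importer that feeds glutathione synthesis, was at 9.65 and 9.25 FPKM with an interval from -0.14 to 0.020. Gstm1, a glutathione transferase with close paralogs and therefore of uncertain value, was at 5.02 and 6.99 FPKM, a log2 fold change of 0.41. Among 14 partners and turnover factors of NRF2 compared, 4 lay higher and 10 lower around a median of -0.058. The 1 past 1.2-fold, Nfe2l3, an NRF2 relative also named after its values were seen, was at 1.55 and 2.11 FPKM.

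Among 19 other thiol redox genes compared, 9 lay higher and 10 lower, with 1 at least 1.2-fold higher and 2 lower. The higher one, named after its values were seen, was Sesn1, a stress-induced sestrin, at 3.96 and 5.10 FPKM. The lower ones were Glrx5, a mitochondrial glutaredoxin of iron-sulfur cluster assembly, at 48.99 and 39.85 FPKM, and Msra, a methionine sulfoxide reductase, at 2.27 and 1.71 FPKM. Txnip, the thioredoxin-binding inhibitor, was at 5.57 and 5.36 FPKM. Among 13 other NADPH and pentose phosphate genes, 8 were higher and 5 lower, and 2 were past 1.2-fold. These were H6pd, the glucose-6-phosphate dehydrogenase of the endoplasmic reticulum, at 4.39 and 10.35 FPKM, and Nnt, the mitochondrial transhydrogenase that makes NADPH, at 1.03 and 2.40 FPKM, with log2 fold changes of 1.07 and 0.74.

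NADPH oxidases, which spend NADPH to make superoxide, were sparse in 4T1 cells. Of 16 subunits and regulators, 9 were listed at 0 in both libraries, and 3 were past the level limit. Nox4, a constitutively active catalytic subunit, was at 3.68 and 3.95 FPKM, and Cyba, its membrane partner p22phox, at 73.17 and 74.83 FPKM. Rac1, a small GTPase that also serves these oxidases among many other roles, was at 136.17 FPKM under PBS and 60.69 FPKM under oxalate, a log2 fold change of -1.15.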

How the data were processed

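Polyadenylated RNA of 4T1 cells was sequenced by the authors in 2 libraries, 1 per condition. The deposited values are FPKM per gene, rounded by the authors to 2 decimals. The submitters' processing notes name Bowtie2 2.2.8 and TopHat2 2.1.1; the quantification tool, genome build, annotation and filters are not given in the sources used here.

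Symbols came from GENCODE M21 (GRCm38), which matched 21848 of 21911 identifiers. Genes with a mean of at least 1 FPKM were compared with a pseudocount of 1. Calls were at 1.2-fold, with no test. All members, and of the other lists the 3 highest and 3 lowest genes past 1.2-fold plus Hmox1, Slc7a11, Rac1, Txnip and the 3 highest oxidase genes, were named. The members and lists were chosen with earlier results of these data known. A comparison with random genes was not made.

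In genes with 1 transcript shorter than 1.2 kb, FPKM times length moved in steps of 0.0176 (PBS, 178 genes) and 0.0275 (oxalate, 150 genes). Below 0.7 kb, 81 of 81 and 74 of 74 values of up to 10 reads lay within 0.2 of a whole read. Reads of a gene used the mean length of its coding transcripts and are estimates. PCR reads are not independent molecules, so intervals cover counting error only. Alternatives were pseudocounts (0.1 and 0.001), level limits (none and 5), a rescaling, centring on deciles of GC content or length, thresholds (1.1-fold, 1.5-fold and 2-fold), the mean, and the longest transcript. The scripts were tested on simulated data. Software was matplotlib 3.10.9, scipy 1.17.1, pandas 2.3.3 and numpy 2.4.6 under Python 3.11.15.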

Additional observations from a re-analysis of the deposited data

How the results depend on the processing

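No paired analysis was possible because PBS and oxalate have 1 library each, and for the same reason no replicate could be left out. The count of 3 members at least 1.2-fold higher and 0 lower held with pseudocounts of 0.1 and 0.001, without a level limit, with the limit at 5 FPKM, after rescaling and after centring on length, and was 2 and 0 after centring on GC content, where Txnrd2 lay just under the limit. Only the threshold or the set of genes moved it further. At 1.1-fold there were 5 higher and 4 lower, against 14.9% and 15.7% of all genes, and at 1.5-fold and 2-fold 0 were higher and 0 lower. Among genes with 1 coding transcript, a setting chosen after the data were seen, 0 of 9 members were 1.2-fold higher and 0 lower, against 1.94% and 4.40% of such genes, and 5 of 9 were higher, against 43.9%. The list median stayed between -0.0030 and 0.043 under every alternative run. With A or G before TGAC, 3 promoters in place of 10 held the letters. Using the longest transcript, 18 counting intervals lay off no difference, as before. Of 170 values of single members under the alternatives 7 moved beyond their counting interval. All of these were under centring on GC content or length, and none under the pseudocounts or the rescaling. Among the members called, 0 reversed. Of the members not called, Prdx2 and Prdx5 changed sign under centring on length, and Sod2, Taldo1 and Me1 under centring on GC content. Of 35 branch medians 0 moved. Depth limits Sod3, Cbr1, Blvrb and Txnrd2 most, with 61 to 507 estimated reads in the oxalate library.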
